A study of Mus musculus with 11 samples.

Results

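The genes described here are 10 named components and targets of the Hippo pathway: Yap1, Wwtr1 (which encodes TAZ), Tead1, Tead2, Tead3, Tead4, Lats1, Lats2, Amotl2 and Ankrd1. They were chosen by symbol and function, and the rule that picks them uses no measured value, though it was written with earlier results of these data known. All 10 were found among the 27179 gene identifiers of the count table, and all 10 were among the 17370 genes that passed a filter on low counts and were tested.

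The Hippo pathway is a kinase cascade that limits organ growth. The LATS kinases phosphorylate the coactivators YAP and TAZ and hold them in the cytoplasm, and when this phosphorylation is low YAP and TAZ enter the nucleus and drive transcription through the TEAD family of DNA-binding proteins. The cascade responds to cell density, polarity and mechanical force, and in the mammary epithelium YAP and TAZ are known for their links to the basal state and to tissue regeneration. Control of YAP and TAZ is largely at the protein level, which RNA-seq does not measure.

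The RNA came from the mammary glands of C57BL/6 mice aged 5 weeks that carried an E-cadherin-GFP knock-in allele, the same allele and age in every group. Terminal end buds (TEBs), the club-shaped growing tips of the pubertal gland, were separated from the ducts behind them by microdissection under GFP fluorescence. Lineage-negative CD29+ CD24+ cells were then sorted into luminal cells (Ecad-GFP hi) and basal cells (Ecad-GFP lo). Each library pooled at least 2 mice. There were 3 libraries of basal cells from ducts, 3 of basal cells from TEBs, 3 of luminal cells from TEBs and 2 of luminal cells from ducts (replicates 1 and 3), a further luminal duct library having been discarded by the authors for its low number of cells. Microdissection limits these groups as models, since a TEB sample can hold neighbouring duct cells and the luminal gate holds several luminal subsets.

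Libraries held between 27989137 and 49221436 counts. The mitochondrial share of counts was 4.34 to 37.5% and was over 17% in basal TEB replicates 1 and 3 and in luminal duct replicate 3. The gates matched their markers. The summed level of 8 basal markers, among them Krt5, Krt14 and Trp63, was 5671 to 20419 CPM (read counts scaled to library size) in the basal libraries and 15.5 to 271 CPM in the luminal libraries. The summed level of 8 luminal markers was 12827 to 19879 CPM in the luminal libraries and 475 to 718 CPM in the basal libraries. Basal duct replicate 2 and luminal duct replicate 3 stood apart in markers of other cell types. The 6 fibroblast markers summed to 839.6 CPM in the former and 249.7 CPM in the latter, each the highest of its group, and 5 immune markers to 81.3 and 52.1 CPM. Where leaving both out ended or made a call, that value is given.

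TEAD proteins bind DNA at the core GGAATG, read as CATTCC on the other strand. Promoter windows of 300 bases, from 250 before to 50 after the transcription start, were taken from RefSeq (GRCm38.p6), and both strands were searched for these letters. Of the 8 members with a window, 6 (75%) held the core, which were Yap1, Wwtr1, Tead3, Lats2, Amotl2 and Ankrd1. Over all genes with a window the share was 4481 of 27025 (16.6%). In the wider lists read below it was 9 of 29 (31%) for upstream genes and 4 of 12 (33.3%) for other targets. A gene can have several windows. Counted by window, 8 of 12 member windows (66.7%) held the core, beside 4817 of 32851 (14.7%) of all windows. The only match of Lats2 lay after the start. The windows of Tead2 and Lats1 did not hold these letters, and Tead1 and Tead4 had no window. The sequences below show the core in capitals. They are from the 2 coactivators, from Amotl2 and Ankrd1, members that are also targets of the pathway, and from Ccn1, a further target. Each is 30 bases, written 5′ to 3′ on the strand of the gene. For Amotl2 the start used is internal, as the gene itself begins at 102717091. Its core thus lies inside the gene and is upstream of that internal start only. For Yap1 the start used is also internal, as the gene on the minus strand begins at 8004638. The Yap1 core lies upstream of both starts, and is nearer to that of the gene itself than the distance given.
Yap1 (chr9:8004720-8004749, minus strand, core 141 bases upstream of the start): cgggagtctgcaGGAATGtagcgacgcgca
Wwtr1 (chr3:57576029-57576058, minus strand, core 136 bases upstream of the nearer of its starts): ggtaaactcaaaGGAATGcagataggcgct
Amotl2 (chr9:102717727-102717756, plus strand, core 65 bases upstream): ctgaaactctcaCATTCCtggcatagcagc
Ankrd1 (chr19:36119950-36119979, minus strand, core 123 bases upstream): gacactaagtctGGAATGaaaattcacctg
Ccn1 (chr3:145650071-145650100, minus strand, core 103 bases upstream): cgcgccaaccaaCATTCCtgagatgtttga
Ankrd1 held another copy 210 bases upstream (chr19:36120037-36120066, minus strand), in the run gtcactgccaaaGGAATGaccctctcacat. A match describes these letters and does not show that a TEAD protein binds there.

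The coactivators Yap1 and Wwtr1 were both higher in basal than in luminal cells of ducts, and from ducts to TEBs only the values of Wwtr1 in basal cells separated downward. Yap1 lies on chromosome 9 (mm10, 7931999 to 8004638, minus strand). It was at 338, 291 and 300.1 CPM in basal ducts and at 264, 307 and 279.7 CPM in basal TEBs. In luminal cells it was at 151 and 142 CPM in ducts and at 163, 154 and 169 CPM in TEBs. Every basal library therefore lay above every luminal library. In the quasi-likelihood test of edgeR, with p adjusted by Benjamini-Hochberg over all genes tested (called FDR from here on), Yap1 was 2.11-fold higher in basal than luminal cells of ducts (log2 difference 1.08 ± 0.17, SE, edgeR FDR = 0.000551). In TEBs it was 1.75-fold higher (0.81 ± 0.14, edgeR FDR = 0.0013). Scaling by library size alone ended the call in TEBs (log2 difference 0.42, edgeR FDR = 0.335), and in that setting the median of all genes in this comparison moved to -0.35.

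Wwtr1 lies on chromosome 3 (57455644 to 57575910, minus strand). It was at 179, 201 and 156 CPM in basal ducts but at 85.2, 115 and 98.4 CPM in basal TEBs, so the groups did not overlap. Luminal cells had 89.2 and 52.1 CPM in ducts and 59.1, 83.7 and 65.7 CPM in TEBs, which overlapped. The 3 basal duct libraries were the highest of the 11. In ducts Wwtr1 was 2.52-fold higher in basal than luminal cells (1.33 ± 0.26, edgeR FDR = 0.00293). In TEBs the difference was 0.52 ± 0.22 (edgeR FDR = 0.118), although the 3 basal libraries lay above the 3 luminal libraries, and it passed the threshold without the 2 libraries of highest mitochondrial share (edgeR FDR = 0.0341).

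Per kilobase of counted transcript, Yap1 RNA was the larger of the pair in every library. Yap1 made up 66.6% ± 3.56 (SD, n = 3) of the length-scaled sum of Yap1 and Wwtr1 in basal ducts and 76.7% ± 1.30 (SD, n = 3) in basal TEBs. The luminal share was 70.9% ± 6.84 (SD, n = 2) for ducts and 72.8% ± 4.39 (SD, n = 3) for TEBs. The basal TEB shares of 75.4 to 78.0% lay above the basal duct shares of 62.5 to 68.9%, while the luminal shares overlapped.

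**Figure D1:**
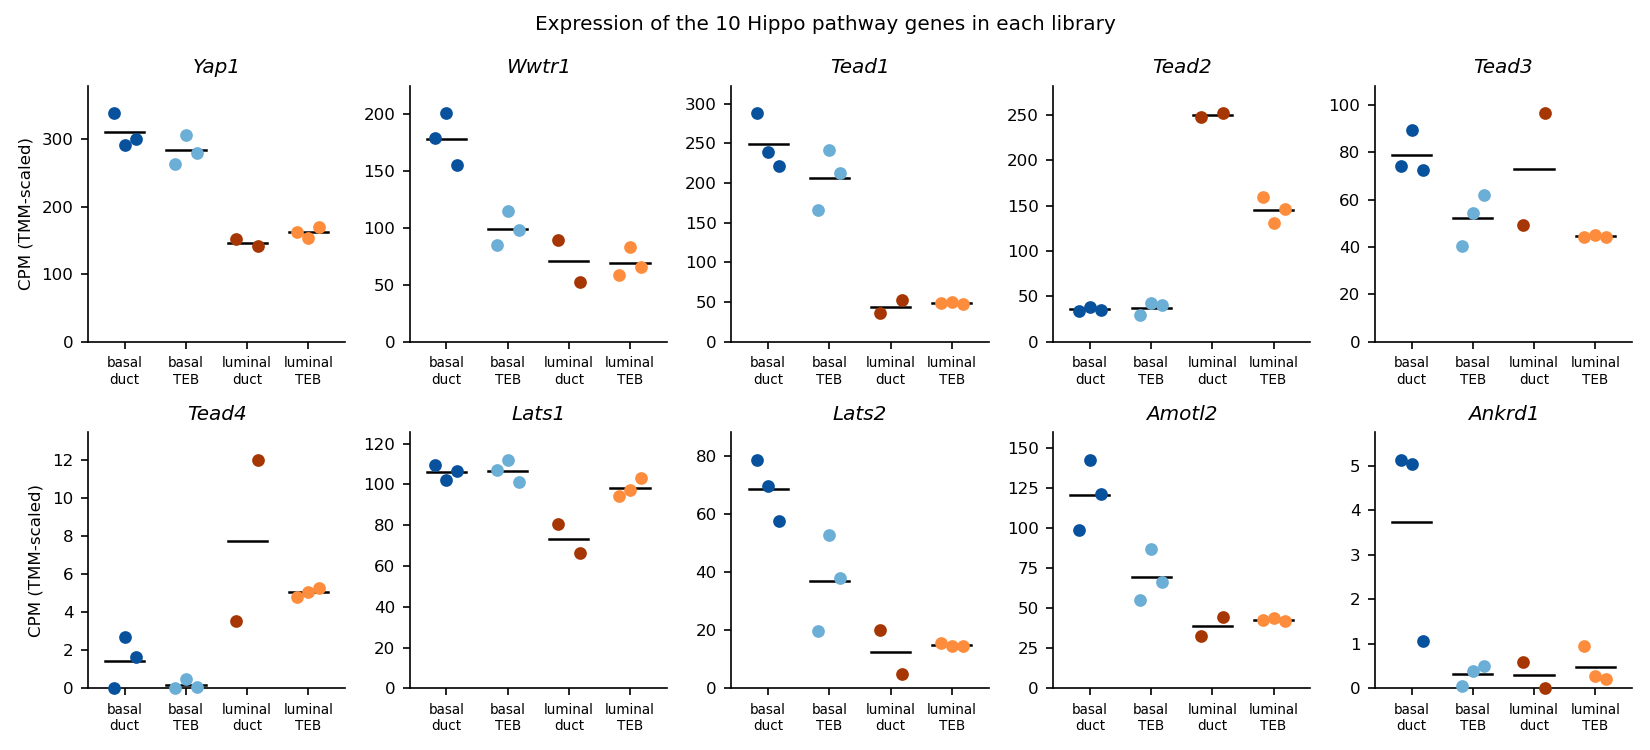
Each panel plots CPM (TMM-scaled, linear axis from 0, scaled per panel) of 1 gene, with 1 point per library and a bar at the group mean, for basal ducts, basal TEBs, luminal ducts and luminal TEBs (n = 3, 3, 2 and 3). Yap1 and Tead1 were higher in every basal library, Tead2 was higher in every luminal library, and Wwtr1, Tead3, Lats2, Amotl2 and Ankrd1 were lower in every basal TEB library than in any basal duct library.

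The TEAD genes encode the DNA-binding partners through which YAP and TAZ act. Tead1 was higher in basal cells and Tead2 in luminal cells, and both were detected in every library. Tead1, on chromosome 7 (112679356 to 112906784, plus strand), was at 288, 239 and 222 CPM in basal ducts and 166, 241 and 213 CPM in basal TEBs. Luminal cells had 36.0 and 52.8 CPM in ducts and 49.4, 50.2 and 48.1 CPM in TEBs. No basal library reached down to the luminal range. Tead1 was 5.63-fold higher in basal cells in ducts (2.49 ± 0.24, edgeR FDR = 1.9e-05) and 4.20-fold higher in TEBs (2.07 ± 0.20, edgeR FDR = 1.33e-05).

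Tead2, also on chromosome 7 (45215792 to 45233468, plus strand), ran the other way. It was at 33.9, 38.3 and 35.0 CPM in basal ducts and 29.8, 42.8 and 40.2 CPM in basal TEBs. In luminal ducts it was at 248 and 251 CPM, and in luminal TEBs at 159, 131 and 146 CPM. Luminal levels were thus above basal levels in both structures, and within luminal cells the TEB libraries lay below the duct libraries. Tead2 was 6.98-fold lower in basal than luminal cells in ducts (log2 difference -2.80 ± 0.19, edgeR FDR = 2.24e-06) and 3.85-fold lower in TEBs (-1.95 ± 0.17, edgeR FDR = 6.87e-06). The calls on Tead1 and Tead2 between cell types held in every alternative run.

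Tead3 was not called between basal and luminal cells. On chromosome 17 (28331671 to 28350805, minus strand), it was at 74.1, 89.2 and 72.6 CPM in basal ducts and 40.5, 54.4 and 61.9 CPM in basal TEBs. The luminal values were 49.4 and 96.4 CPM in ducts and 44.3, 45.2 and 44.4 CPM in TEBs. TEB libraries were below duct libraries in both cell types. The difference between basal and luminal cells was 0.11 ± 0.27 in ducts (95% interval by normal approximation, here and below, -0.43 to 0.65, edgeR FDR = 0.814). In TEBs it was 0.23 ± 0.24 (95% interval -0.25 to 0.71, edgeR FDR = 0.548). The direction in TEBs turned with library size alone (-0.14). In ducts luminal replicate 3, the higher of the 2 luminal libraries, decided the value, which was 0.67 without it and -0.29 without luminal duct replicate 1. Without it and basal TEB replicate 1, the 2 libraries of highest mitochondrial share, the difference in ducts was called (0.67, edgeR FDR = 0.0338).

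Tead4 (chromosome 6, 128227143 to 128300813, minus strand) was the least abundant of the family. In basal cells it had 1, 103 and 64 counts in the duct libraries (0.0200, 2.71 and 1.64 CPM) and 0, 24 and 2 counts in the TEB libraries. The library with 0 counts could hold up to 0.173 CPM (3 counts, for counting error only). Luminal cells had 155 and 292 counts in ducts (3.53 and 12.01 CPM) and 213, 267 and 275 counts in TEBs (4.78, 5.09 and 5.30 CPM). All luminal libraries were thus above all basal libraries, but the difference was not called in ducts (-2.41 ± 1.55, edgeR FDR = 0.29) or in TEBs (-4.65 ± 1.62, edgeR FDR = 0.0559). In TEBs 9 of 24 alternatives called it, the likelihood ratio test (edgeR FDR = 0.0111) and the Wald test of DESeq2 (adjusted p = 0.00235) among them.

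Scaled by the counted gene length, basal cells shared their TEAD RNA among Tead1, Tead2 and Tead3, while in luminal cells Tead2 predominated. In basal ducts the shares were 36.5% ± 4.45 for Tead1, 24.7% ± 1.54 for Tead2 and 38.1% ± 2.70 for Tead3 (SD, n = 3). In basal TEBs they were 37.1% ± 1.85, 31.8% ± 0.547 and 31.0% ± 2.49 in the same order (SD, n = 3). Among luminal cells, Tead2 made up 79.4% ± 7.38 and Tead1 2.96% ± 0.491 of the ductal total (SD, n = 2). In luminal TEBs the Tead2 share was 76.1% ± 2.05 and the Tead1 share 5.51% ± 0.470 (SD, n = 3). The summed TEAD level was 68.6 ± 4.66 CPM per kb in basal ducts and 56.0 ± 10.2 in basal TEBs (SD, n = 3). On this scale luminal cells had more, 149 ± 15.4 CPM per kb in ducts (SD, n = 2) and 90.1 ± 6.56 CPM per kb in TEBs (SD, n = 3). These shares and sums depend on the counted lengths, 9962 bases for Tead1 and 2115 for Tead2. The lengths of the transcripts expressed were not measured. Without this scaling, Tead1 averaged 249.5 and 207 CPM in basal ducts and TEBs, and Tead2 249.5 and 145 CPM in luminal ducts and TEBs. In basal ducts Tead2 and Tead3 then averaged 35.7 and 78.6 CPM. The even basal split and the higher luminal sum were read on the length-scaled values only.

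**Figure D2:**
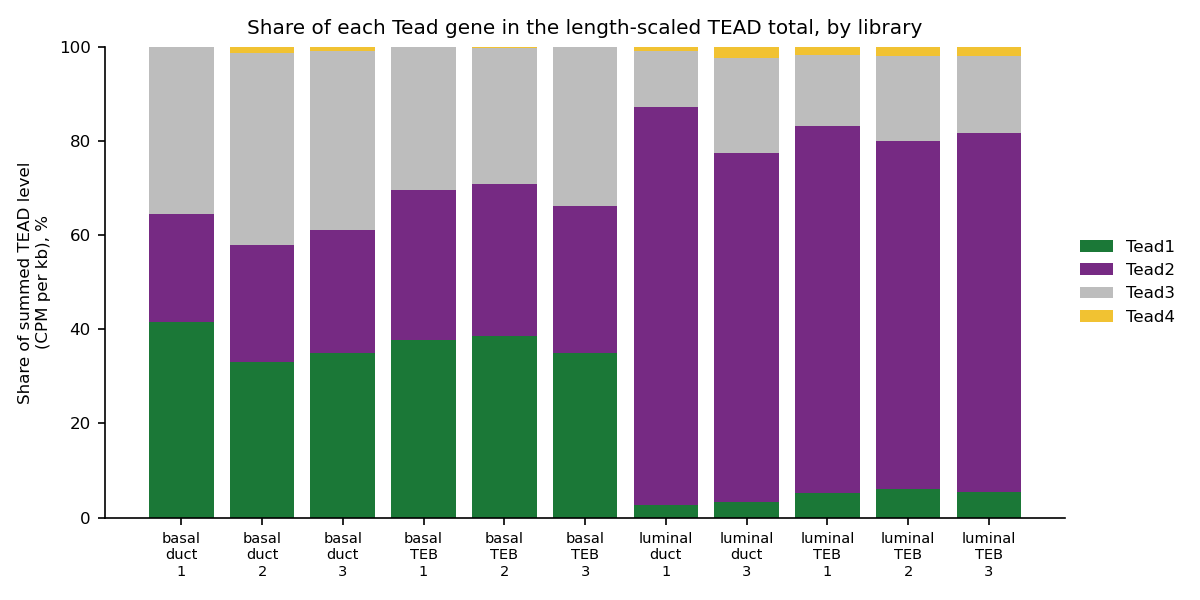
Stacked bars give, for each of the 11 libraries, the percent of the summed TEAD level (CPM per kb of counted length) that came from Tead1, Tead2, Tead3 and Tead4. Tead2 took 73.9 to 84.7% in the luminal libraries and 23.0 to 32.2% in the basal libraries.

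Lats1 and Lats2 encode the kinases that phosphorylate YAP and TAZ, and LATS2 is itself induced by YAP and TAZ as part of a negative feedback. Lats1 varied less between groups than the other members. It was at 109.7, 102 and 106 CPM in basal ducts, 107, 112 and 101 CPM in basal TEBs, 80.3 and 66.2 CPM in luminal ducts, and 94.4, 97.2 and 103 CPM in luminal TEBs. The 2 luminal duct libraries were the lowest. In ducts it was 1.45-fold higher in basal than luminal cells (0.53 ± 0.16, edgeR FDR = 0.0339), a call kept in 11 of 24 alternatives and lost without basal duct replicate 1 or 3, luminal duct replicate 3 or any 1 luminal TEB library (edgeR FDR from 0.0662 to 0.178). In TEBs the difference was 0.12 ± 0.14 (95% interval -0.16 to 0.40, edgeR FDR = 0.595), and it turned with library size alone (-0.29). Lats1 (chromosome 10, 7681200 to 7716461, plus strand) overlaps the counted gene Pcmt1, and whether the counting used strand is not given in the sources used here, so reads of the pair may not be told apart.

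Lats2 (chromosome 14, 57689662 to 57746212, minus strand) varied far more. It was at 78.5, 69.5 and 57.7 CPM in basal ducts and 19.9, 52.6 and 38.0 CPM in basal TEBs. Luminal cells had 20.1 and 4.98 CPM in ducts and 15.5, 14.6 and 14.4 CPM in TEBs. Basal libraries were above luminal libraries within each structure, with basal TEB replicate 1 closest to the luminal values. In ducts Lats2 was 5.44-fold higher in basal than luminal cells (2.44 ± 0.54, edgeR FDR = 0.00648), a log2 value that was 3.78 without luminal duct replicate 1 and 1.77 without luminal duct replicate 3. In TEBs it was 2.49-fold higher (1.32 ± 0.45) with an edgeR FDR of 0.0501, which just misses the threshold, and 13 of 24 alternatives called it. Basal TEB replicate 1 also had the highest mitochondrial share, and without it and luminal duct replicate 3 the FDR was 0.000192.

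Amotl2 and Ankrd1 are targets of YAP and TAZ. AMOTL2, an angiomotin family scaffold, in turn binds YAP and TAZ and restrains them, and ANKRD1 is an ankyrin repeat protein widely used as a readout of YAP activity. Amotl2 (chromosome 9, 102717091 to 102733418, plus strand) was at 98.6, 143 and 121 CPM in basal ducts and 54.9, 87.3 and 66.1 CPM in basal TEBs. In luminal cells it was at 33.0 and 44.4 CPM in ducts and 42.4, 44.0 and 42.1 CPM in TEBs. Both basal groups lay above both luminal groups, and basal TEBs lay between basal ducts and luminal cells. It was 3.13-fold higher in basal cells in ducts (1.64 ± 0.25, edgeR FDR = 0.00053) and 1.62-fold higher in TEBs (0.70 ± 0.21, edgeR FDR = 0.0308). The call in TEBs was lost with library size alone (edgeR FDR = 0.507), without basal TEB replicate 2 or 3 (0.134 and 0.0573) and without any 1 luminal TEB library (0.0984 to 0.113).

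Ankrd1 (chromosome 19, 36111965 to 36119844, minus strand) was scarce. It had 257, 191 and 41 counts in the basal duct libraries (5.13, 5.03 and 1.05 CPM) and 1, 18 and 18 counts in the basal TEB libraries (0.0577, 0.379 and 0.504 CPM). Luminal ducts had 26 and 0 counts, the library at 0 having a limit of 0.123 CPM (3 counts), and luminal TEBs had 42, 14 and 11 counts. The 3 basal duct libraries were the highest of the 11. The difference between basal and luminal cells was 3.62 ± 1.95 in ducts (edgeR FDR = 0.21) and -0.57 ± 1.499 in TEBs (edgeR FDR = 0.827), and neither was called. Limma voom called the difference in ducts (adjusted p = 0.0413).

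Counted over the members, 7 of 10 were called between basal and luminal cells in ducts at an FDR of 0.05, 6 higher in basal cells (Yap1, Wwtr1, Tead1, Lats1, Lats2, Amotl2) and 1 lower (Tead2). Among all 17370 genes 22.3% were called in this comparison, 12.6% higher and 9.71% lower in basal cells. In TEBs 4 of 10 were called, 3 higher (Yap1, Tead1, Amotl2) and 1 lower (Tead2), beside 25.1% of all genes, 13.2% higher and 11.8% lower. The median log2 difference of the members was 1.21 in ducts and 0.37 in TEBs, beside 0.08 and 0.04 over all genes. The alternatives called 6 to 8 members in ducts and 2 to 7 in TEBs. Without basal duct replicate 2 and luminal duct replicate 3 the counts were 6 in ducts, with Lats1 lost (edgeR FDR = 0.148), and 5 in TEBs, with Lats2 gained (edgeR FDR = 0.0131). The test of whether the difference between cell types changed from ducts to TEBs (the interaction) called 0 of 10, beside 0.443% of all genes. At an unadjusted p under 0.05, 3 of 10 passed in edgeR (Wwtr1, Tead2 and Amotl2), beside 14.7% of all genes, DESeq2's Wald test called 1 (Tead2, adjusted p = 0.0433), and the likelihood ratio test and limma voom called 0. Without luminal duct replicate 1 the interaction of Lats2 was called (edgeR FDR = 0.0401).

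**Figure D3:**
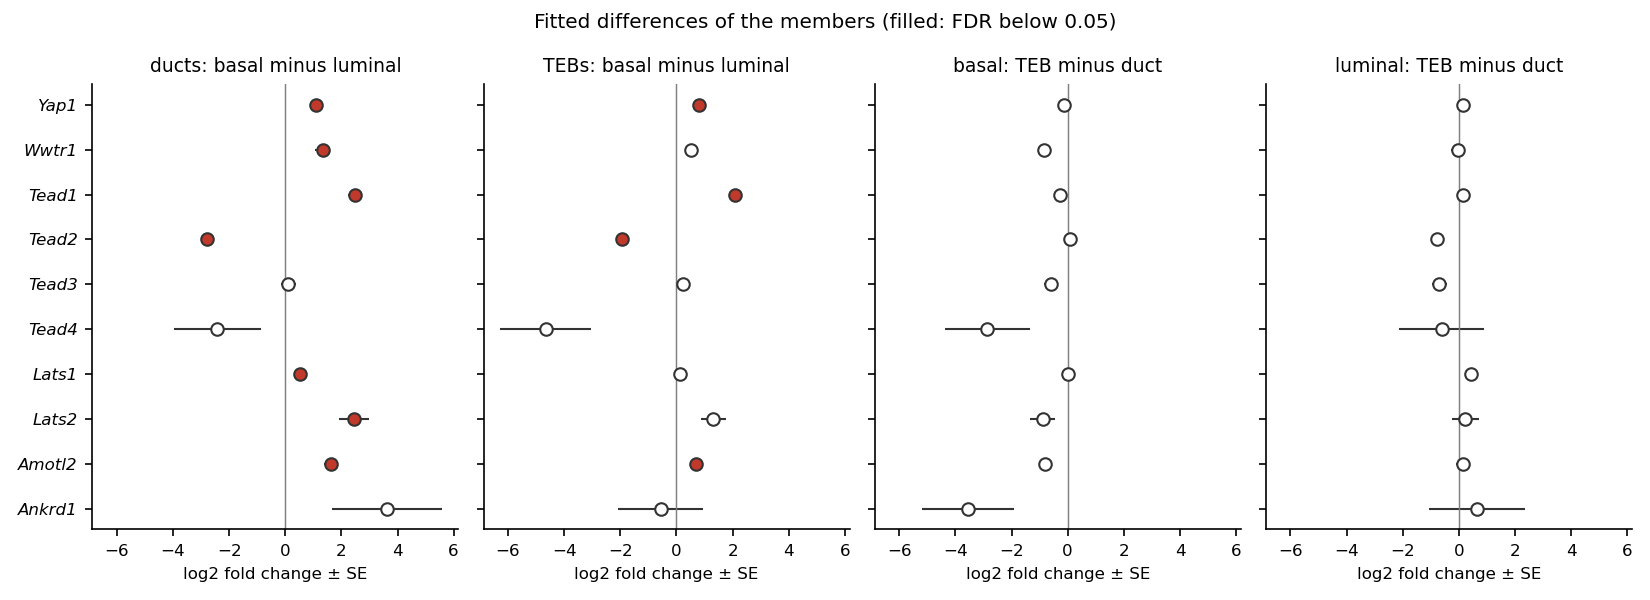
Points give the fitted log2 fold change of each member with its SE (bars, hidden where narrower than the point) in 4 comparisons, on 1 shared axis, filled where the edgeR FDR was below 0.05. The filled points are 7 in ducts and 4 in TEBs between basal and luminal cells, and 0 between TEBs and ducts in either cell type.

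Between TEBs and ducts 0 of 10 members were called in basal cells, where 1.32% of all genes were called, and 0 of 10 in luminal cells, where 1.41% were called. At an unadjusted p under 0.05, edgeR passed 3 members in basal cells (Wwtr1, Tead3, Amotl2), beside 14.5% of all genes, and 3 in luminal cells (Tead2, Tead3, Lats1), beside 16.6% of all genes. Other tests called some of these. In basal cells the likelihood ratio test and DESeq2's Wald test each called Wwtr1 and Amotl2, and limma voom called Wwtr1. In luminal cells the same 3 tools each called Tead2.

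In basal cells the members leaned toward lower values in TEBs. Wwtr1 differed by -0.84 ± 0.22 (edgeR FDR = 0.11), Amotl2 by -0.80 ± 0.21 (edgeR FDR = 0.11), Tead3 by -0.59 ± 0.24 (edgeR FDR = 0.301) and Lats2 by -0.89 ± 0.44 (edgeR FDR = 0.382). For these and for Ankrd1 (-3.54 ± 1.64, edgeR FDR = 0.351), all 3 TEB libraries lay below all 3 duct libraries, which makes 5 of 10 members, and 0 of 10 lay wholly above. Over all genes 11.9% lay wholly below and 8.88% wholly above. Yap1 and Tead1, by contrast, differed by -0.13 ± 0.14 (95% interval -0.41 to 0.15, edgeR FDR = 0.736) and -0.27 ± 0.19 (95% interval -0.65 to 0.11, edgeR FDR = 0.566). Lats1 and Tead2 were at 0.01 ± 0.14 (95% interval -0.27 to 0.29, edgeR FDR = 0.997) and 0.08 ± 0.17 (95% interval -0.25 to 0.41, edgeR FDR = 0.893), both with directions that depended on the scaling. The median over the members was -0.69, beside -0.03 over all genes tested. Basal TEB replicate 1 was the lowest of its group for every member but Lats1. Its mitochondrial share of counts was 37.5%, beside 4.74 and 17.8% in basal TEB replicates 2 and 3. Basal ducts had 6.66 to 10.9%. Whether this share bears on these values was not tested. With any 1 library left out, Wwtr1 (-1.01 to -0.73) and Amotl2 (-1.04 to -0.65) stayed below 0. So did Tead3 (-0.73 to -0.43), Lats2 (-1.28 to -0.59) and Ankrd1 (-4.03 to -3.06). Wwtr1 was called without luminal duct replicate 1 (edgeR FDR = 0.0441) or 3 (0.0436), and Amotl2 without basal TEB replicate 2 (0.0386).

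Some lists of markers of other cell types were also lower in basal TEBs. The 6 fibroblast markers summed to 430.2 to 839.6 CPM in basal ducts and 226 to 406 CPM in basal TEBs, with all 6 lower in TEBs and 0 of 6 called, and a single marker at 0 in basal TEB replicate 1 and in basal duct replicate 1. The 8 basal markers were also lower, at 16527 to 20419 CPM in ducts and 5671 to 8752 CPM in TEBs, with 4 of 8 called. Pericyte markers summed to 24.2 to 44.0 CPM in basal ducts and 1.15 to 17.0 CPM in basal TEBs (4 of 4 lower), endothelial markers to 8.48 to 175 and 3.53 to 35.9 CPM (5 of 5 lower) and immune markers to 25.1 to 81.3 and 27.6 to 30.7 CPM (4 of 4 tested lower), with 0 called in each list. The endothelial and immune sums overlapped between the structures. Of the adipocyte markers tested 1 of 3 was higher in TEBs, of the Schwann markers 2 of 3 and of the skeletal muscle markers 2 of 5. All 3 erythroid markers tested were lower. The part of these marker lists in the values of Wwtr1, Tead3, Lats2, Amotl2 and Ankrd1 was not tested. In bulk samples fewer cells of a type and less RNA per cell cannot be told apart. Without basal duct replicate 2 and luminal duct replicate 3, an alternative added after these marker values were seen, 0 members were called in basal cells and 0 in luminal cells.

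In luminal cells the members' values went both ways. Yap1 and Lats1 lay wholly above the duct libraries in TEBs (2 of 10 members, beside 26.2% of all genes), and Tead2 and Tead3 lay wholly below (2 of 10, beside 17.4%). Tead2 differed by -0.78 ± 0.19 (edgeR FDR = 0.0634), the value nearest to a call, and 7 of 24 alternatives called it. Tead3 differed by -0.71 ± 0.27 (edgeR FDR = 0.216) and was called without luminal duct replicate 1 (edgeR FDR = 0.0212). Lats1 differed by 0.42 ± 0.16 (edgeR FDR = 0.216) and Yap1 by 0.14 ± 0.16 (edgeR FDR = 0.691). Wwtr1, at -0.03 ± 0.25 (95% interval -0.51 to 0.46, edgeR FDR = 0.99), turned with library size alone (0.32). Lats2, at 0.23 ± 0.50 (edgeR FDR = 0.86), was 1.58 without luminal duct replicate 1 and -0.44 without luminal duct replicate 3. Basal markers moved with these comparisons, at 99.0 to 271 CPM summed in luminal ducts and 15.5 to 28.6 CPM in luminal TEBs, with 7 of 8 called lower. The 6 fibroblast markers summed to 6.03 to 249.7 CPM in luminal ducts and 11.7 to 53.1 CPM in luminal TEBs, with 6 of 6 lower in the fit and 0 called. Their part in the luminal values was not tested.

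A ratio of 2 genes within 1 library does not depend on how libraries are scaled. The log2 ratio of Tead2 to Tead1 (CPM with a prior count of 2) was -3.09 to -2.64 in basal ducts, -2.50 to -2.40 in basal TEBs, 2.25 to 2.78 in luminal ducts and 1.38 to 1.69 in luminal TEBs. Its basal minus luminal difference was -4.66 (two-sided exact permutation test within structure, p = 0.005, the smallest that 200 arrangements can give, adjusted p = 0.015 over 6 tests). The log2 ratio of Lats2 to Lats1 was -0.88 to -0.48 in basal ducts, -2.43 to -1.09 in basal TEBs, -3.72 to -1.99 in luminal ducts and -2.84 to -2.61 in luminal TEBs. It was higher in basal cells by 1.65 (exact permutation p = 0.005, adjusted p = 0.015). For both ratios the adjusted exact permutation p was 0.05 without any 1 of the 3 basal duct libraries. In these libraries basal cells held more Lats2 relative to Lats1, and less Tead2 relative to Tead1, than luminal cells. The 3 ratios were chosen with earlier results of these data known. Tead1, Tead2 and Lats2 had also separated the cell types within each structure above. The permutation p values of the ratios are therefore no independent evidence.

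The ratio of Wwtr1 to Yap1 did not separate the cell types but was lower in basal TEBs. In basal cells its log2 value was -0.95 to -0.54 in ducts and -1.63 to -1.42 in TEBs, with no overlap, and in luminal cells -1.44 and -0.76 in ducts and -1.46 to -0.88 in TEBs. Over both cell types the TEB minus duct difference was -0.42 (exact permutation p = 0.06, adjusted p = 0.12), made of -0.72 in basal and -0.13 in luminal cells. Without luminal duct replicate 3, which leaves a single luminal duct library, the difference was -0.59. Basal minus luminal it was 0.01 (exact permutation p = 0.965). From ducts to TEBs, Lats2/Lats1 differed by -0.43 (exact permutation p = 0.32, adjusted p = 0.384) and Tead2/Tead1 by -0.31 (exact permutation p = 0.31, adjusted p = 0.384). Without luminal duct replicate 3, again with a single luminal duct library left, the Lats2/Lats1 difference was -0.87.

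**Figure D4:**
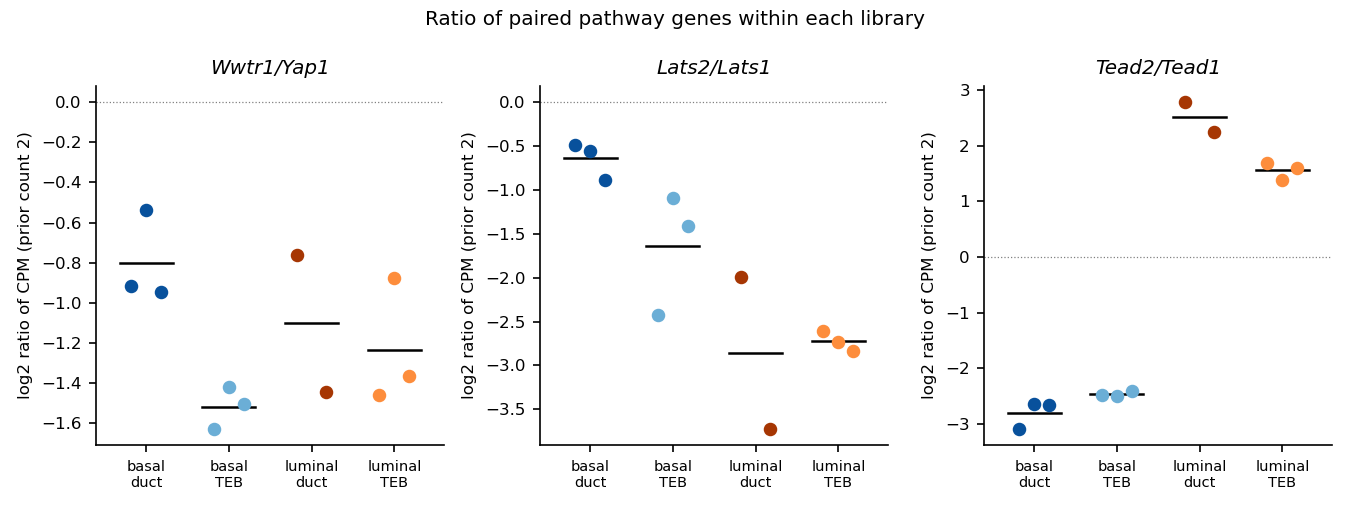
Each panel plots the log2 ratio of the CPM of 2 members within a library (prior count 2), with 1 point per library, a bar at the group mean and a dotted line at 0. Tead2/Tead1 was above 0 in the 5 luminal libraries and below 0 in the 6 basal libraries, and Wwtr1/Yap1 was below 0 in all 11.

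The wider pathway was read from a list of 36 upstream kinases, scaffolds and cofactors, of which 34 were tested. In ducts 11 were called higher and 2 lower in basal cells (12.6% and 9.71% of all genes), and in TEBs 11 higher and 2 lower (13.2% and 11.8%), with median log2 differences of 0.39 and 0.11 beside 0.08 and 0.04 over all genes. Of the core kinases and their partners, mean levels over the 4 groups ran from 27.2 to 35.8 CPM for Stk3 and 40.9 to 57.4 CPM for Stk4 (the kinases that phosphorylate LATS), 56.6 to 92.4 CPM for Sav1 (their scaffold), 35.8 to 63.7 CPM for Mob1a (a LATS coactivator) and 119.6 to 152 CPM for Nf2 (the membrane protein merlin, which brings LATS to the kinases). None of these 5 was called in any of the 4 comparisons by edgeR, although the basal libraries of Sav1 lay wholly below the luminal ones in both structures. Ajuba, a LIM-domain protein that restrains LATS, was higher in basal cells, at 139 CPM in basal ducts and 10.3 CPM in luminal ducts (3.75 ± 0.25, edgeR FDR = 1.78e-06), and in TEBs by 3.37 ± 0.20 (edgeR FDR = 4.77e-07). Its relative Limd1 went the other way, by -0.82 ± 0.20 in ducts (edgeR FDR = 0.0105, lost with library size alone at 0.184 and without basal duct replicate 2 and luminal duct replicate 3 at 0.0703) and -0.84 ± 0.18 in TEBs (edgeR FDR = 0.00445).

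The atypical cadherins Dchs1 and Fat4, which form a ligand and receptor pair at the cell surface, were called higher in basal cells of both structures. Dchs1 averaged 51.9 CPM in basal ducts and 20.7 CPM in basal TEBs, and had 0 or 1 count in 4 of the luminal libraries and 15 in the other. Fat4 averaged 30.2 and 12.5 CPM in basal ducts and TEBs and 0.24 and 0.41 CPM in luminal ducts and TEBs. The Fat4 call in ducts was lost without luminal duct replicate 3 (edgeR FDR = 0.0694), without it and basal duct replicate 2 (0.119) and with voom sample weights (0.146). Amotl1, a further angiomotin, was called higher in basal cells of both structures, with means of 338 and 230.0 CPM in basal ducts and TEBs and 66.2 and 106 CPM in luminal ducts and TEBs. Amot itself, at 12.5 to 28.8 CPM, was not called. Wwc1 (KIBRA, an upstream activator) was lower in basal cells of ducts (-1.18 ± 0.34, edgeR FDR = 0.0247), and Taok1, a kinase that activates the cascade, was lower in basal cells of TEBs (-1.01 ± 0.28, edgeR FDR = 0.0192). The Wwc1 call was lost without basal duct replicate 1 (0.0742) or 2 (0.0775), without luminal duct replicate 1 (0.121), without basal duct replicate 2 and luminal duct replicate 3 together (0.099) and with library size alone (0.169). The Taok1 call was lost without basal TEB replicate 3 (0.0735) or any 1 luminal TEB library (0.056 to 0.0659). Of the TEAD cofactors, Vgll4 averaged 18.4 to 31.4 CPM, and Vgll1 and Vgll2 were too low to test. Vgll3 averaged 18.7 and 5.87 CPM in basal ducts and TEBs and 2.82 and 0.03 CPM in luminal ducts and TEBs. It was called higher in basal cells of TEBs (7.35 ± 1.83, edgeR FDR = 0.011), where luminal libraries held 5 counts in total. In ducts it was not called (2.74 ± 1.66, edgeR FDR = 0.262).

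Frmd6, a FERM-domain protein placed upstream of the kinases, was the 1 gene of this list called between TEBs and ducts. The call was in basal cells, where 1.32% of all genes were called. Frmd6 is described here by library. It was at 271, 252 and 205 CPM in basal ducts and 127, 117 and 97.7 CPM in basal TEBs, and at 20.3 and 22.5 CPM in luminal ducts and 28.9, 32.1 and 29.1 CPM in luminal TEBs. Basal TEB libraries were all below basal duct libraries, and luminal TEB libraries all above luminal duct libraries. In basal cells it was lower in TEBs (-1.09 ± 0.17, edgeR FDR = 0.00766), a call lost with library size alone (0.0648) and without basal TEB replicate 3 (0.056). In luminal cells 0 of the 34 were called by edgeR, beside 1.41% of all genes. At an unadjusted p under 0.05 in edgeR, 6 of the 34 passed, beside 16.6% of all genes.

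The list of 19 other YAP/TAZ target genes, of which 18 were tested, divided between the cell types in both directions. In ducts 11 were called higher and 4 lower in basal cells (12.6% and 9.71% of all genes), and in TEBs 9 higher and 4 lower (13.2% and 11.8%), with median log2 differences of 2.06 and 1.54 beside 0.08 and 0.04 over all genes. Ccn1 and Ccn2 encode secreted matricellular proteins that are standard readouts of YAP and TAZ, and both were called higher in basal cells of both structures. Ccn1 was at 742, 1212 and 949 CPM in basal ducts and 719, 664 and 736 CPM in basal TEBs, and at 106 to 216 CPM in luminal cells. Ccn2 was at 535, 928 and 672 CPM in basal ducts and 318, 334 and 312 CPM in basal TEBs, and at 2.71 to 26.4 CPM in luminal cells. For both, each basal TEB library was below each basal duct library, though neither was called between the structures. Axl, a receptor tyrosine kinase, averaged 250.1 CPM in basal ducts, 127 CPM in basal TEBs and under 2 CPM in both luminal groups.

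The largest differences of the list between cell types in ducts were in Fjx1 and Igfbp3. Fjx1, a secreted Four-jointed homologue, differed by 7.39 ± 0.44 (edgeR FDR = 1.11e-06). Igfbp3, which binds insulin-like growth factors, differed by 7.38 ± 0.66 (edgeR FDR = 1.09e-05), and by 6.64 or 8.86 without luminal duct replicate 1 or 3. In TEBs the largest were in Igfbp3 (8.54 ± 0.58), Axl (6.14 ± 0.73) and Fjx1 (5.77 ± 0.33). Targets lower in basal cells included F3 (tissue factor) by -3.45 ± 0.41 in ducts and -3.90 ± 0.40 in TEBs (edgeR FDR = 9.2e-05 and 2.19e-05), and Dock5, an exchange factor for Rac, by -2.31 ± 0.45 and -1.95 ± 0.41 (edgeR FDR = 0.00267 and 0.00421). Without luminal duct replicate 1 the duct values were -2.63 for F3 and -1.56 for Dock5, both still called. Gadd45a, a stress-induced gene, was lower in basal cells of ducts (-2.25 ± 0.33, edgeR FDR = 0.000374) and the kinase Nuak2 in basal cells of TEBs (-3.20 ± 0.98, edgeR FDR = 0.0315). The Nuak2 call was lost without basal TEB replicate 3 (0.0763), without any 1 luminal TEB library (0.0612 to 0.104) and with the compared groups alone (0.0724). The target list thus held genes of both lineages.

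**Figure D5:**
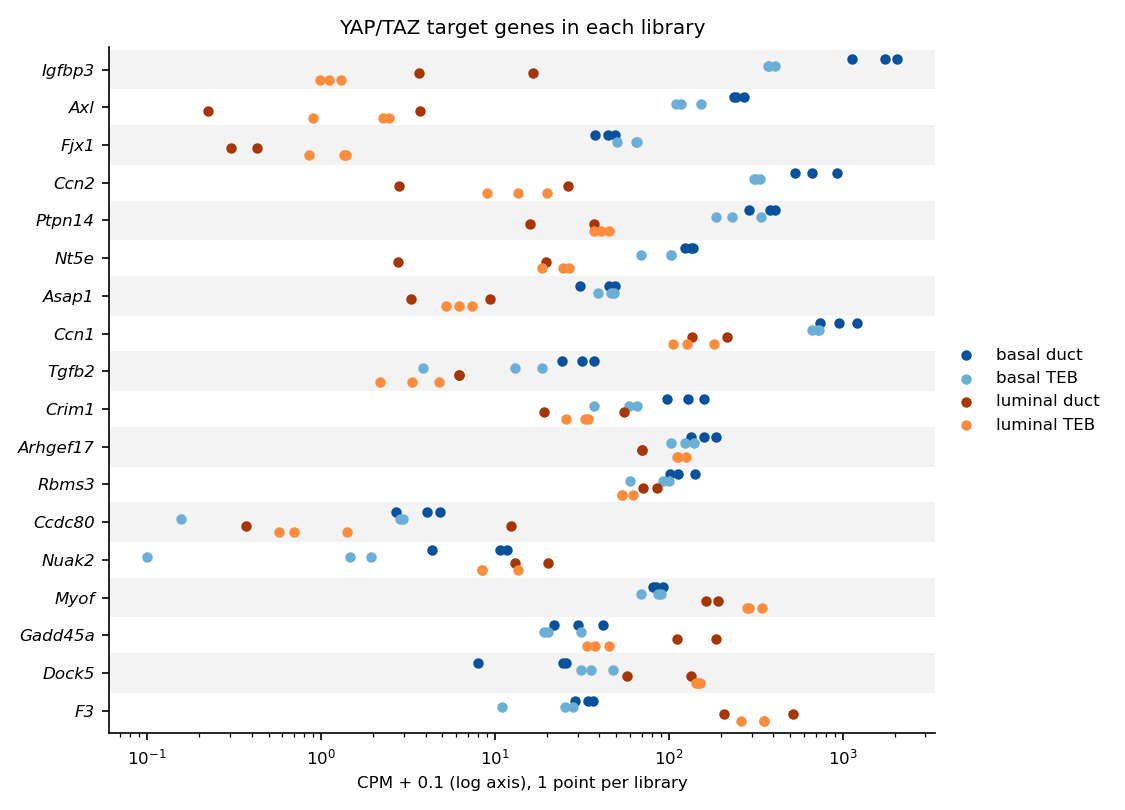
Points give CPM + 0.1 on a log axis for 18 of the 19 target genes (Foxf2, at or near 0 in all libraries, is not drawn), 1 point per library, ordered by the basal to luminal difference in ducts. Igfbp3, Axl, Fjx1 and Ccn2 at the top were far higher in basal than luminal libraries. In ducts, F3, Dock5, Gadd45a and Myof at the bottom were higher in luminal than basal libraries.

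Between TEBs and ducts, 1 of 18 targets was called in basal cells (1.32% of all genes) and 3 in luminal cells (1.41%). Igfbp3 was lower in TEBs in both. It was at 1754, 2065 and 1136 CPM in basal ducts and 375, 377 and 406 CPM in basal TEBs (-2.10 ± 0.43, edgeR FDR = 0.0374), and at 3.55 and 16.5 CPM in luminal ducts and 1.21, 1.01 and 0.886 CPM in luminal TEBs (-3.26 ± 0.50, edgeR FDR = 0.0122). Both calls depended on single libraries: the first was lost without any 1 of 8 libraries (all but basal duct replicate 3 and the luminal duct libraries, edgeR FDR from 0.0602 to 0.172), and the second without luminal TEB replicate 3 (0.0714) and with limma voom (0.347). Without luminal duct replicate 3 the luminal difference of Igfbp3 was -1.78, still called, and without luminal duct replicate 1 it was -3.995. In luminal TEBs Gadd45a was lower (-1.93 ± 0.33, edgeR FDR = 0.0191) and Fjx1 higher (2.08 ± 0.38, edgeR FDR = 0.0264), with Fjx1 at 8 or 9 counts in the luminal duct libraries and 39 to 68 in luminal TEBs. Both were lost without luminal TEB replicate 1 (0.074 and 0.0872) or 2 (0.0742 and 0.0844), Gadd45a also without luminal TEB replicate 3 (0.069) and Fjx1 also without luminal duct replicate 1 (0.0582), without basal duct replicate 2 and luminal duct replicate 3 (0.0505) and with limma voom (0.433). The median over the targets in basal cells was -0.52, with 15 of 18 below 0, beside -0.03 over all genes. The fibroblast, pericyte and basal marker sums given above were lower in basal TEBs and the basal marker sums in luminal TEBs (7 of 8 called), and their part in these values, Igfbp3 among them, was not tested.

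Among the 7862 genes whose mean log2 CPM was 4 or more, likeness to a member was measured as the root mean square difference of centred log2 CPM over the 11 libraries. The genes most like Yap1 were Itm2c (0.0889 log2 units), Ppt1 (0.103) and Map4k5 (0.108). Map4k5 encodes a kinase of the family that phosphorylates LATS. The genes most like Wwtr1 were Hexim1 (0.148), Pink1 (0.161) and Gm10080 (0.194). Of the members, Amotl2 was nearest to Wwtr1, at rank 54, followed by Yap1 at rank 105, while Wwtr1 stood at rank 621 from Yap1. Itm2c had mean log2 CPM of 8.08, 7.92, 6.96 and 7.05 in basal ducts, basal TEBs, luminal ducts and luminal TEBs, and Hexim1 had 7.97, 7.23, 6.62 and 6.62. The 11 libraries share the same 4 groups, so the likeness cannot be told apart from a likeness of group means.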

How the data were processed

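RNA-seq was performed by the authors on the 11 sorted populations. The deposited values are whole-number counts per Entrez gene, which the authors made with Rsubread (alignment of 80 bp reads to mm10) and featureCounts (RefSeq gene models), without normalization. All columns were used. Low genes were removed by filterByExpr (10 counts per library, 15 in total), and counts were scaled by TMM and fitted with edgeR's quasi-likelihood test in 1 model of 4 group means, with Benjamini-Hochberg adjustment over 17370 genes at an FDR of 0.05. R 4.3.3, edgeR 4.0.16, limma 3.58.1 and DESeq2 1.42.0 were used. The common biological coefficient of variation was 0.704. SE is the absolute log2 fold change over the square root of F. CPM are TMM-scaled, and CPM per kb use the counted gene length in the deposited table. Where 0 counts were found, the limit is 3 counts, and limits cover counting error only. Samples were grouped by title.

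The 10 members, the lists of upstream and target genes and the 3 ratios were chosen with earlier results of these data known, and the lists come from general knowledge. Other pathway genes named are a fixed set (Ccn1, Ccn2, Axl, Vgll1 to Vgll4, Nf2, Amot, Amotl1, Stk3, Stk4, Sav1, Mob1a) and, per comparison, list and direction, up to 3 genes of largest change past the threshold. The authors name edgeR's glmFit, run here as an alternative (likelihood ratio test). The fit was also run on simulated counts with a smaller spread than these data, which does not test it in the setting used here. A total of 24 alternatives were run: other scalings, filters and tools, single comparisons, the replicate number, mitochondrial genes removed, libraries left out. Replicate numbers were not treated as pairs, since the labels do not tie the numbers to pools. Of 15 pairs of libraries of one number, 4 had deviations correlated over 0.1. Correlations ran from -0.07 to 0.16 in these 15 and from -0.16 to 0.14 in the 30 other pairs. They cannot tell whether libraries of one number shared mice, and the main tests took the libraries as independent.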

Additional observations from a re-analysis of the deposited data

Results flagged for a closer look

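Frmd6 stood out because its change from ducts to TEBs differed between basal and luminal cells in a test of that difference. The basal change minus the luminal change was -1.58 ± 0.25 (SE, log2 scale, quasi-likelihood test of edgeR, Benjamini-Hochberg FDR = 0.0253), with all 3 basal TEB libraries below all basal ducts and all 3 luminal TEB libraries above both luminal ducts. The call was lost with library size alone (FDR = 0.0629), limma voom with sample weights (0.0878), without the 2 duct libraries of highest stromal and immune markers (0.0549) and without basal duct replicate 1 (0.0734), basal TEB replicate 3 (0.062) or any 1 luminal TEB library (0.0709 to 0.0724). Frmd6 was 1 of 34 upstream genes tested, and 0.443% of all genes were called in this comparison.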

How the results depend on the processing

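Of 1190 values of members under alternatives, 1085 kept their direction and side of the threshold, 20 lost a call, 44 gained one and 41 turned. No member called between cell types turned. Without 1 library, the members called numbered 6 to 7 in ducts and 3 to 5 in TEBs between cell types, and 0 to 1 between TEBs and ducts in basal cells, in luminal cells and in the interaction. Where a luminal duct library was left out, the other was assumed to vary like the remaining groups. Between cell types in TEBs, 2 members were called with library size alone and 7 with voom sample weights. Between TEBs and ducts in basal cells, 2 were called by DESeq2's Wald test and by the likelihood ratio test and 1 by voom. In luminal cells 1 was called with DESeq2 size factors, the Wald test, the likelihood ratio test, voom, voom weights and the compared groups alone, and in the interaction 1 by the Wald test.
The values that turned were near 0 or of scarce genes, and the cause was not tested. Lats1 between basal TEBs and ducts was -0.028 with DESeq2 size factors and with mitochondrial genes removed, -0.024 with the filter at a mean CPM of 1, -0.0281 in DESeq2, -0.0006 with voom weights, -0.0147 without the 2 duct libraries of highest stromal markers and -0.13 with library size alone. Library size alone moved the median of all genes by over 0.1 in every comparison and also turned Lats1 (-0.29) and Tead3 (-0.14) between cell types in TEBs, Tead2 between basal TEBs and ducts (-0.0186), Wwtr1 between luminal TEBs and ducts (0.32) and the Tead3 interaction (-0.42). In luminal TEBs against ducts, leaving out the 2 libraries of highest mitochondrial share, or the 2 of highest stromal markers, gave -0.31 and -0.31 for Ankrd1, -0.43 and -0.43 for Lats2 and 0.53 and 0.53 for Tead4, and the Tead3 interaction was -0.30 and -0.35. Voom weights turned Tead4 in luminal cells (0.0312) and Ankrd1 between cell types in TEBs (0.0664).
Without 1 library the ranges that crossed 0 were, for luminal TEBs against ducts, -0.0496 to 0.38 for Amotl2, -0.35 to 7.25 for Ankrd1, -0.44 to 1.58 for Lats2, -0.10 to 0.45 for Tead1, -1.25 to 0.52 for Tead4 and -0.36 to 0.42 for Wwtr1. For basal TEBs against ducts they were -0.0765 to 0.0463 for Lats1 and -0.0734 to 0.22 for Tead2. Ankrd1 between cell types in TEBs ran from -1.06 to 0.42, Tead3 in ducts from -0.29 to 0.67 and the Tead3 interaction from -0.44 to 0.52. The ratio differences ran from -4.79 to -4.53 (Tead2/Tead1), 1.22 to 2.08 (Lats2/Lats1) and -0.16 to 0.18 (Wwtr1/Yap1) between cell types, and from -0.44 to -0.18, -0.87 to -0.0034 and -0.59 to -0.25 between TEBs and ducts. Over all libraries without strata, Tead2/Tead1 differed by 0.22 between TEBs and ducts.
With the replicate number as a block, 6 members were called in ducts and 5 in TEBs between cell types and 0 in the other comparisons, and Ankrd1 in TEBs was 0.21. The block ended the calls on Lats1 in ducts (FDR = 0.0724), Igfbp3 in basal cells (0.056), Fjx1 in luminal cells (0.0624) and the Frmd6 interaction (0.0504) and added Tead4 between cell types in TEBs (0.0243). Over 5 pairs of one number, the ratio differences between cell types were -4.56 (Tead2/Tead1), 1.52 (Lats2/Lats1) and -0.10 (Wwtr1/Yap1), where the smallest exact p is 0.0625. Of 15 pairs of libraries of one number, 4 deviated together with a correlation over 0.1 (range -0.07 to 0.16). The 30 other pairs ranged from -0.16 to 0.14. These values cannot tell whether libraries of one number shared mice, and the main fit read the numbers as names. Of 671 values of named pathway genes, 59 lost a call and 0 turned. With 2 luminal duct libraries and 0 to 26 counts of Ankrd1 there, differences of scarce genes were not detectable at this depth unless many-fold.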
